A study of Mus musculus with 20 samples.

Results

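Mitochondrial ribosomal protein genes are the nuclear genes whose symbols start with Mrpl or Mrps, followed by a number and at most 1 letter. Of 53560 entries in the expression table, 77 met this rule once models marked as pseudogenes were left out. Of these, 50 code for proteins of the large subunit of the mitochondrial ribosome and 26 for proteins of the small subunit. Mrps18a and Mrps30 carry a small-subunit symbol, but their products sit in the large subunit and were counted there. Mrps36 is not a ribosomal protein in current usage: its product is a subunit of the 2-oxoglutarate dehydrogenase complex, and it was kept because of its symbol. By ancestry, 46 of the 77 have a bacterial homolog and 30 are specific to mitochondria, with Mrps36 in neither class. These classes follow the names of the proteins in current nomenclature, by which Mrps18a and Mrps18b count as specific to mitochondria although they are related to Mrps18c, which has a bacterial homolog. All 77 reached 1 FPKM (fragments per kilobase of transcript, scaled to library size) in at least 2 libraries, the filter applied to every gene.

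The mitochondrial ribosome translates the few messages encoded by mitochondrial DNA, all of which specify core parts of the respiratory chain and ATP synthase. Its RNAs come from mitochondrial DNA, whereas every one of its proteins is encoded in the nucleus, made in the cytosol and imported. Mouse embryonic stem (ES) cells are known to draw much of their energy from glycolysis, and mitochondria enlarge and mature as such cells differentiate, most of all in heart muscle.

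The study compared the TL1 mouse ES cell line in wild type form (WT) with the same line after CRISPR/Cas9 targeting of p150 (KO), the largest protein of CAF-1, a chaperone that places histones on newly replicated DNA. WT and KO ES cells were cultured in serum with LIF, the cytokine that keeps them pluripotent, and embryoid bodies (EBs), the aggregates in which ES cells differentiate, were grown from each in the same medium with LIF withdrawn. RNA was sequenced in 2 libraries for each of the 4 groups (WT ES, KO ES, WT EB and KO EB). Chromatin immunoprecipitation for H3K4me3, a mark of active promoters, and for H3K27me3, a mark of Polycomb repression, was sequenced in 1 library per mark and group. The age of the EBs, the number of KO clones and whether the libraries of a group came from separate cultures are not given in the sources used here, so p-values rest on a spread between libraries that may be technical alone. FPKM for Chaf1a, the p150 gene, was 49.5 and 43.0 in WT ES, 48.1 and 38.0 in KO ES, 31.7 and 32.1 in WT EB and 31.6 and 35.0 in KO EB, and a value for the whole gene does not see a small lesion. The titles of the EB histone mark libraries put a 7 before EB without saying what it stands for. Libraries of a group are named replicate 1 and replicate 2 below. Read counts were not used here. The most frequent ratio of low FPKM values to those of WT ES replicate 1 put the relative depth of the libraries between 0.847 and 1. The KO EB libraries were lowest, at 0.847 and 0.871. Only a limited range of ratios was searched, so a larger gap in depth could not have been seen this way.

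Promoter sequences from RefSeq (GRCm38.p6), running from 250 bases before to 50 bases after a gene start, could be matched for 68 of the 77 genes. The 6 shown here belong to genes on which the RNA results turn, or share their start region with a neighbouring gene described further below. They are written 5′ to 3′ on the strand of the gene, and capitals mark matches to the motif letters of NRF1, of ETS factors such as GABP, of YY1 and of NF-Y, factors known for binding promoters of nuclear genes for mitochondrial proteins or of housekeeping genes. Mrps18b, the small-subunit gene with the largest fall during WT differentiation, has 1 NRF1 match. Mrps24, a small-subunit gene, has a YY1 match just past its start. Mrps27, whose product is a pentatricopeptide repeat protein of the small subunit, starts beside Ptcd2 and has an ETS and a YY1 match. Mrpl32 starts beside Psma2, a proteasome subunit gene. It has NRF1 matches on both strands, which overlap at 1 place, and a YY1 and an NF-Y match. Mrps12, whose product lies at the decoding centre, starts beside Sars2 and has 4 NF-Y matches and 1 YY1 match. Mrpl40 starts beside Hira, which codes for a chaperone of histone H3.3, and holds none of the motifs.
Mrps18b, chr17:35916391-35916690, minus strand: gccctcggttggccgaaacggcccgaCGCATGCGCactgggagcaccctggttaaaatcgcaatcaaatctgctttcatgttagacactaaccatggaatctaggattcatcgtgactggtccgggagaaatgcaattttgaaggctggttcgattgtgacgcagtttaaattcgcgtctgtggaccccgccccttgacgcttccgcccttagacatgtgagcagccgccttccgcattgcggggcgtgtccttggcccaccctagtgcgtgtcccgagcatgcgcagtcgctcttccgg
Mrps24, chr11:5707652-5707951, minus strand: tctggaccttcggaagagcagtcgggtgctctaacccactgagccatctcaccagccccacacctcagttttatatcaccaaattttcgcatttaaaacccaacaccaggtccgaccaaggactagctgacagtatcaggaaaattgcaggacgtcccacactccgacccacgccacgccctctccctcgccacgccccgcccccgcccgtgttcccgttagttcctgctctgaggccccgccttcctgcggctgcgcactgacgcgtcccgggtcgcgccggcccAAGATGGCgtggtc
Mrps27, chr13:99344536-99344835, plus strand: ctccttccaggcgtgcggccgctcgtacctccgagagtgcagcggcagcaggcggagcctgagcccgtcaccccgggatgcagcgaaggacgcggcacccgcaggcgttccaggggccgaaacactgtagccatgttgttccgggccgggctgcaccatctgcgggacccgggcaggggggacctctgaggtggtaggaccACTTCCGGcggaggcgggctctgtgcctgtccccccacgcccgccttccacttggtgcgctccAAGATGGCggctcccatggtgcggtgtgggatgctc
Mrpl32, chr13:14612988-14613287, minus strand: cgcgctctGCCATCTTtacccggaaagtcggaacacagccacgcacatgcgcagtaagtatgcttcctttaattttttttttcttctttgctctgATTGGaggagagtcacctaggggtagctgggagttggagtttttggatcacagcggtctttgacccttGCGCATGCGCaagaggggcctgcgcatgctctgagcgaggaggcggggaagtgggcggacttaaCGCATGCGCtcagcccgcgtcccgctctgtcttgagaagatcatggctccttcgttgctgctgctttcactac
Mrps12, chr7:28741772-28742071, minus strand: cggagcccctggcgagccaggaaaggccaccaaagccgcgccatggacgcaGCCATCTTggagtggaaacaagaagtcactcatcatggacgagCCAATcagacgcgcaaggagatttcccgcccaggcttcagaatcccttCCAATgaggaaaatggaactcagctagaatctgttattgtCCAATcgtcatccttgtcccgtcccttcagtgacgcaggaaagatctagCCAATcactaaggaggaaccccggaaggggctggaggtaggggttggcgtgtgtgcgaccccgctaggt
Mrpl40, chr16:18876588-18876887, minus strand: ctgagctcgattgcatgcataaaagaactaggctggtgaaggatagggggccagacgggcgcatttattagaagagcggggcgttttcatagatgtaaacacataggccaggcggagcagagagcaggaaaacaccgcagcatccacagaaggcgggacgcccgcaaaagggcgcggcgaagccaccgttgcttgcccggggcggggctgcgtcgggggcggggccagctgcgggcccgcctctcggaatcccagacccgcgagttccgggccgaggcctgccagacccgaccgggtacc

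The promoters of the mitochondrial ribosomal protein genes were rich in CpG. Their median GC content was 58.5%, against 56.3% for protein-coding genes, and the median number of CpG dinucleotides per sequence was 21.5 against 13. Of 6 motifs searched on both strands, the NRF1 letters GCGCATGCG were found in 7 of the 68 genes (10.3%, against 1.95% of all 27025 genes with a promoter sequence and 2.61% of protein-coding genes), the ETS letters CCGGAAGT in 12 (17.6% against 4.31% and 5.69%) and the YY1 letters AAGATGGC in 12 (17.6% against 3.19% and 3.57%). The NF-Y letters CCAAT were found in 27 genes (39.7% against 41.1% and 42.3%), the palindrome CTCGCGAG in 2 (2.94% against 1.04% and 1.41%) and the CRE letters TGACGTCA in 2 (2.94% against 2.03% and 2.54%). NRF1, ETS or YY1 letters were in 29 of the 68, against 2415 of all 27025 genes and 1950 of 17492 protein-coding genes. The remaining 39 of the 68 held none of these exact letters in this window. A match is a description of the letters, and binding was not measured.

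Levels of the 77 genes spanned a wide range. The mean over the 8 libraries was highest for Mrps21 (200.5 FPKM), Mrpl17 (195 FPKM) and Mrpl52 (184 FPKM), and lowest for Mrpl19 (6.35 FPKM), Mrpl1 (11.3 FPKM) and Mrpl48 (13.0 FPKM). Mrps21, a small-subunit protein with a bacterial homolog, ranged from 128 FPKM in WT ES to 322 FPKM in WT EB, whereas Mrpl48, a large-subunit protein, stayed between 11.9 and 14.3 FPKM in all 8 libraries. Mrpl48 had the lowest coefficient of variation over the libraries, 7.04%, and Mrps6 the highest, 53.1%. In every library at least 73 of the 77 lay above the median of the genes tested.

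Added together, RNA for mitochondrial ribosomal proteins was highest in WT ES cells and lowest in WT EBs. The summed FPKM was 5117 and 4735 in WT ES, 4736 and 4403 in KO ES, 3674 and 3606 in WT EB and 4383 and 4273 in KO EB. The WT EB libraries were thus the lowest of the 8 and overlapped with no other group, and both KO EB libraries lay just under the KO ES libraries. As a share of all FPKM the genes made up 0.687% ± 0.0226 (SD, n = 2) in WT ES, 0.643% ± 0.0265 in KO ES, 0.550% ± 0.0172 in WT EB and 0.566% ± 0.00706 in KO EB. On this scale the EB groups came close to each other: WT EB replicate 2, at 0.562%, exceeded KO EB replicate 1, at 0.561%. Genes for cytosolic ribosomal proteins took up 21.7% and 18.6% of all FPKM in WT EB but 28.9% and 26.6% in KO EB. With those genes and the mitochondrially encoded ones taken out of the total, the share was 0.710% ± 0.00279 in WT EB and 0.814% ± 0.00100 in KO EB, against 0.882% ± 0.0375 in WT ES and 0.825% ± 0.0302 in KO ES. With 2 libraries against 2 these shares were not tested. In bulk RNA, fewer cells of a type and less RNA per cell cannot be told apart.

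**Figure D1:**
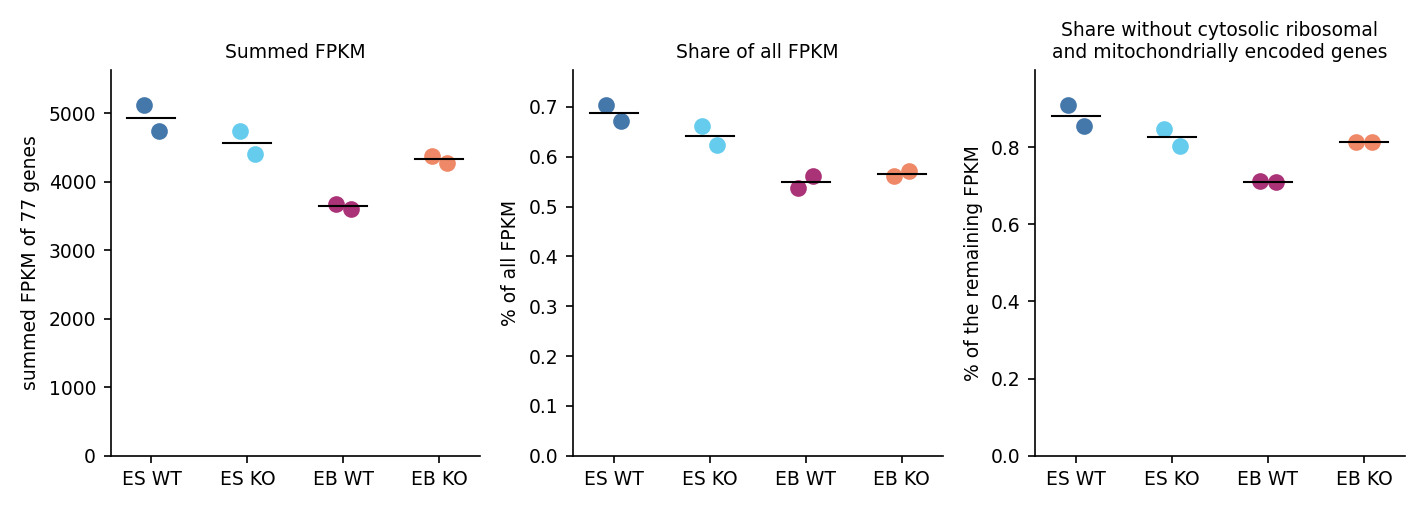
Summed FPKM of the 77 mitochondrial ribosomal protein genes (left), their share of all FPKM in percent (middle) and their share once cytosolic ribosomal protein genes and mitochondrially encoded genes are taken out of the total (right), for each library by group; points are libraries and lines are group means. WT EB is lowest in the left and right panels, at 3606 to 3674 FPKM and 0.710%, while the EB groups overlap in the middle panel.

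The subunits moved largely together. The small-subunit sum was 0.494 to 0.505 of the large-subunit sum in the ES libraries, 0.562 and 0.534 in WT EB and 0.533 and 0.528 in KO EB. Mrps21 alone made up the higher ratio in EBs: without it the ratio was 0.445 to 0.458 in ES, 0.423 and 0.431 in WT EB, and 0.445 and 0.448 in KO EB.

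When WT ES cells became EBs, RNA fell for most mitochondrial ribosomal protein genes. At an adjusted p under 0.05 in limma on log2(FPKM + 1), 46 of the 77 were lower in WT EB and 6 were higher, where 24.8% of all 15428 genes tested were lower and 36.1% higher. Their median log2 difference was -0.50, against 0.12 for all genes tested. Both WT EB libraries lay below both WT ES libraries for 56 of the 77 (72.7%, against 35.4% of all genes tested) and above them for 12 (15.6% against 45.9%). The size of the fall depended on the scaling: at a common median FPKM 65 were lower and 2 higher (median -0.97, with 39.3% of all genes lower, 25.6% higher and a median of -0.27), and at a common FPKM total 38 were lower and 8 higher (median -0.40, with 21.5% of all genes lower, 38.8% higher and a median of 0.22). Both subunits took part, with 28 of 50 large-subunit genes lower and 3 higher (median -0.43) and 18 of 26 small-subunit genes lower and 2 higher (median -0.54). Genes with a bacterial homolog (31 of 46 lower, 3 higher, median -0.55) and mitochondria-specific genes (15 of 30 lower, 2 higher, median -0.40) showed the same direction, and a difference between these classes was not tested.

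The largest fall was that of Mrps18b, 1 of 3 related proteins with Mrps18a and Mrps18c, at chr17:35910379-35916389 (mm10). It stood at 113 and 109 FPKM in WT ES and at 33.9 and 31.4 FPKM in WT EB, a log2 difference of -1.73 ± 0.09 (SE, limma adjusted p = 3.15e-05). Its paralogs differed from it: Mrps18c (76.5 and 58.5 FPKM in WT ES, 70.3 and 61.9 in WT EB) and Mrps18a (45.9 and 46.9 in WT ES, 57.4 and 50.1 in WT EB) were not called. Mrpl15, a large-subunit protein with a bacterial homolog, at chr1:4773206-4785739 (mm10), dropped from 161 and 164 FPKM to 47.9 and 56.0 FPKM (log2 -1.63 ± 0.11, adjusted p = 4.69e-05). Mrps5, whose bacterial homolog helps to set decoding accuracy, at chr2:127587222-127606829 (mm10), dropped from 101 and 92.7 FPKM to 35.4 and 32.1 FPKM (log2 -1.49 ± 0.11, adjusted p = 6.49e-05). For these genes the WT EB libraries were lower than any of the other 6 libraries. Mrpl35, a large-subunit protein, went from 17.8 and 20.6 to 9.73 and 6.15 FPKM (log2 -1.20 ± 0.20, adjusted p = 0.00178), and Mrpl40, a mitochondria-specific large-subunit protein, from 57.5 and 55.9 to 25.4 and 23.7 FPKM (log2 -1.18 ± 0.09, adjusted p = 8.09e-05). Mrpl12, whose product forms the flexible stalk that recruits translation factors, was among the genes with separated groups, at 110 and 105 FPKM in WT ES and 61.9 and 58.7 FPKM in WT EB.

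The 6 genes that rose in WT EBs were Mrps6, Mrps21, Mrpl14, Mrpl53, Mrps36 and Mrpl41. Mrps6, a small-subunit protein with a bacterial homolog, rose from 31.2 and 22.4 FPKM to 72.4 and 82.0 FPKM (log2 1.51 ± 0.24, limma adjusted p = 0.00127). The locus of Mrps6 overlaps that of Slc5a3, a myo-inositol transporter gene, over 29152 bases, and Slc5a3 was at 1.38 and 0.478 FPKM in WT ES and 6.03 and 9.01 FPKM in WT EB; how shared reads were assigned is not given, so the value of Mrps6 is uncertain. Mrps21 rose from 128 and 148 FPKM to 322 and 237 FPKM (log2 1.00 ± 0.16, adjusted p = 0.00139), and both WT EB libraries exceeded every ES library. Mrpl14, a protein at the interface of the subunits, rose from 39.6 and 44.5 to 65.8 and 82.8 FPKM (log2 0.80 ± 0.15, adjusted p = 0.00319). Its locus shares 584 bases with Tmem63b, which was at 17.87 and 20.67 FPKM in WT ES and 41.75 and 48.17 FPKM in WT EB. The value of Mrpl14 may therefore include reads of Tmem63b. Mrpl53, specific to mitochondria, rose from 15.1 and 17.4 to 24.0 and 31.3 FPKM (log2 0.73 ± 0.16, adjusted p = 0.00601), and Mrps36 from 33.1 and 34.9 to 51.9 and 43.2 FPKM (log2 0.47 ± 0.11, adjusted p = 0.00902). Mrpl41 went from 28.5 and 33.2 to 42.1 and 43.1 FPKM (log2 0.46 ± 0.12, adjusted p = 0.0117). The rises of Mrps6 and Mrps21 were called under all 17 alternatives. When libraries were brought to a common median FPKM, Mrpl14 (adjusted p = 0.0967), Mrpl53 (0.171) and Mrps36 (0.977) were no longer called and Mrpl41 turned to a log2 difference of -0.0049. The call of Mrps36 was also lost without WT ES replicate 1 (adjusted p = 0.0505) or WT EB replicate 1 (0.0612), and that of Mrpl41 without WT ES replicate 1 (0.0730) or WT EB replicate 2 (0.0589).

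**Figure D2:**
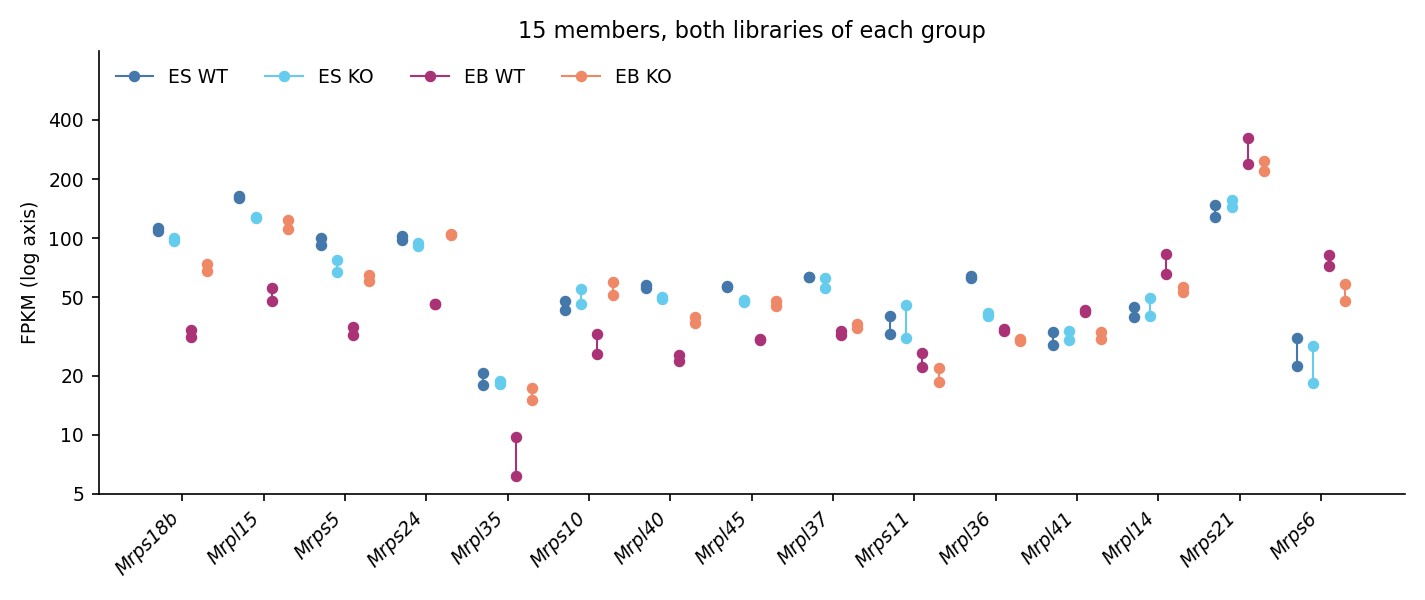
FPKM (log axis) of 15 mitochondrial ribosomal protein genes in both libraries of each group; each point is a library and a line joins the libraries of a group. Mrps18b, Mrpl15, Mrps5, Mrps24 and Mrpl35 are lowest in WT EB, whereas Mrps6 and Mrpl14 are highest there. Mrps21 is higher in the EB groups than in the ES groups, and its WT EB and KO EB libraries overlap.

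Between KO and WT ES cells few of these genes were called. Of the 77, 1 was called lower and 0 higher in KO ES by limma, where 0.0778% of all genes tested were lower and 0.421% higher. At an unadjusted p under 0.05, 7 were lower and 0 higher, where 4.39% of all genes tested were lower and 9.26% higher. The median log2 difference was -0.09 against 0.02 for all genes tested, and the KO and WT libraries overlapped for 48 of the 77 (62.3%, near the 55.9% of all genes tested). The rest leaned 1 way: both KO ES libraries lay below both WT ES libraries for 26 of the 77 (33.8%, against 18.5% of all genes tested). They lay above them for 3 (3.9% against 25.6%). The gene called was Mrpl36, a small large-subunit protein with a bacterial homolog, at 64.1 and 62.9 FPKM in WT ES and 41.5 and 40.3 FPKM in KO ES (log2 -0.62 ± 0.09, adjusted p = 0.0424). Both KO libraries lay well under both WT libraries, but the call was lost without any 1 of the 8 libraries, with adjusted p between 0.0770 and 0.265.

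In EBs the genes went the other way: RNA for many mitochondrial ribosomal proteins was higher in KO EBs than in WT EBs. In limma 25 of the 77 were higher and 1 lower (29 and 3 at an unadjusted p under 0.05, which 23.4% and 30.1% of all genes tested reached), where 20.0% of all genes tested were higher and 25.9% lower. The median log2 difference was 0.22 against -0.06 for all genes tested, and both KO EB libraries lay above both WT EB libraries for 54 of the 77 (70.1%, against 34.8% of all genes tested) and below them for 9 (11.7% against 42.2%). Among genes tested whose mean was 5 FPKM or more, as it was for all 77, 24.2% were higher, 23.7% lower and the median was -0.0063. Large-subunit genes (16 of 50 higher, 1 lower, median 0.20) and small-subunit genes (9 of 26 higher, 0 lower, median 0.22) were alike in these numbers, as were genes with a bacterial homolog (16 of 46 higher, 0 lower, median 0.22) and mitochondria-specific genes (9 of 30 higher, 1 lower, median 0.17).

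The split between higher and lower depended on how libraries were scaled, and the distance of these genes from the median gene moved less. Brought to a common FPKM total, in which the large cytosolic ribosomal protein share of KO EBs counts, 17 were higher and 8 lower. The median of all genes tested then fell from -0.06 to -0.24 and that of the 77 to 0.01, still 0.25 above it. At a common median FPKM 45 were higher and 0 lower, with medians of 0.42 for the 77 and 0.10 for all genes. Quantile normalization gave 30 higher and 1 lower, and a total without cytosolic ribosomal and mitochondrially encoded genes, a scaling chosen after seeing the data, gave 24 higher and 2 lower. The median of the 77 exceeded that of all genes by 0.28 as deposited and by 0.24 to 0.32 under these 4 scalings. Without WT EB replicate 2 the number called higher was 14, and without KO EB replicate 1 it was 13; their median stayed at 0.20 and 0.21.

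Mrpl15 had the largest rise, from 47.9 and 56.0 FPKM in WT EB to 124 and 112 FPKM in KO EB (log2 1.17 ± 0.11, limma adjusted p = 0.000519). Mrps24, a small-subunit protein with a bacterial homolog, at chr11:5703983-5715680 (mm10), was at 46.4 FPKM in both WT EB libraries and at 103 and 106 FPKM in KO EB (log2 1.15 ± 0.08, adjusted p = 0.000297). Mrps18b was at 33.9 and 31.4 FPKM in WT EB and 73.6 and 67.8 FPKM in KO EB (log2 1.09 ± 0.09, adjusted p = 0.000436). The KO EB level of Mrps24 was at or above that of the ES groups, where it ranged from 91.2 to 103 FPKM, while Mrpl15 and Mrps18b stayed below all 4 ES libraries. Mrps10, a small-subunit protein with a bacterial homolog, at chr17:47368887-47381417 (mm10), rose from 32.7 and 25.9 to 59.9 and 51.6 FPKM (log2 0.91 ± 0.16, adjusted p = 0.00379), and Mrps5 from 35.4 and 32.1 to 64.9 and 60.5 FPKM (log2 0.87 ± 0.11, adjusted p = 0.00142). Mrpl21, a large-subunit protein with a bacterial homolog, rose from 52.1 and 50.0 to 83.5 and 79.5 FPKM (log2 0.66 ± 0.10, adjusted p = 0.00230). Mrpl45, which helps to hold the ribosome at the inner membrane where its products are inserted, rose from 30.9 and 30.4 to 45.3 and 48.0 FPKM (log2 0.59 ± 0.09, adjusted p = 0.00238). Mrps27 rose from 23.0 and 27.2 to 39.7 and 37.1 FPKM (log2 0.60 ± 0.12, adjusted p = 0.00640). For all of these the groups did not overlap, which adds little for genes picked by their difference. Of all genes tested, 23% overlapped. Mrps24 shares 2264 bases of its locus with Urgcp, which stayed between 3.89 and 7.88 FPKM in the 8 libraries.

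Other rises rested on fewer libraries. Mrpl35 rose from 9.73 and 6.15 to 17.3 and 15.1 FPKM (log2 0.97 ± 0.20, limma adjusted p = 0.00797), a call lost without KO EB replicate 1 (0.0537). Mrpl1, part of the mobile stalk by which spent tRNA leaves, rose from 6.18 and 7.63 to 13.9 and 11.5 FPKM (log2 0.79 ± 0.17, adjusted p = 0.00974), lost without WT EB replicate 1 (0.0599) or KO EB replicate 1 (0.0635). Mrpl24, a large-subunit protein with a bacterial homolog, rose from 56.7 and 46.6 to 94.1 and 72.3 FPKM (log2 0.67 ± 0.15, adjusted p = 0.0109), lost without WT EB replicate 2 (0.0681) or KO EB replicate 1 (0.0642). Mrpl47, near the exit of the peptide tunnel, went from 16.2 and 9.84 to 21.8 and 20.6 FPKM (log2 0.70 ± 0.23, adjusted p = 0.0440), a call lost in 10 of 17 alternatives; its locus overlaps Actl6a, which was at 64.7 and 58.4 FPKM in WT EB and 117 and 97.4 FPKM in KO EB. Mrps30 went from 15.3 and 11.3 to 20.2 and 18.7 FPKM (log2 0.53 ± 0.16, adjusted p = 0.0322). Over all 17 alternatives, 12 of the 25 rises were called in each: Mrpl15, Mrpl16, Mrpl21, Mrpl40, Mrpl42, Mrpl45, Mrps5, Mrps10, Mrps18b, Mrps24, Mrps27 and Mrps28. No call of this comparison changed direction under any of them.

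Mrpl41, a mitochondria-specific large-subunit protein, was the only gene called lower in KO EBs, at 42.1 and 43.1 FPKM in WT EB and 33.5 and 30.8 FPKM in KO EB (log2 -0.40 ± 0.12, limma adjusted p = 0.0280). The KO EB values fell within the ES range for this gene, 28.5 to 33.6 FPKM. The call was lost at a common median FPKM (adjusted p = 0.236) and without any 1 of the 4 EB libraries (0.0679 to 0.120). Mrps6, at 72.4 and 82.0 FPKM in WT EB and 47.7 and 58.6 FPKM in KO EB, did not pass the test (log2 -0.53 ± 0.24, adjusted p = 0.106), although the groups did not overlap. Several proteins at functional centres were not called either. These included Mrpl12 (log2 0.13, adjusted p = 0.365), Mrpl2 of the peptidyl transferase region (log2 0.33, adjusted p = 0.0676), Mrps12 of the decoding centre (log2 0.29, adjusted p = 0.154) and Mrpl11 at the base of the factor-binding stalk (18.2 and 16.1 FPKM in WT EB, 18.2 and 20.8 in KO EB). Of the paralogs of Mrps18b, Mrps18c had a log2 difference of 0.21 (adjusted p = 0.303) and Mrps18a of -0.02 (adjusted p = 0.909).

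**Figure D3:**
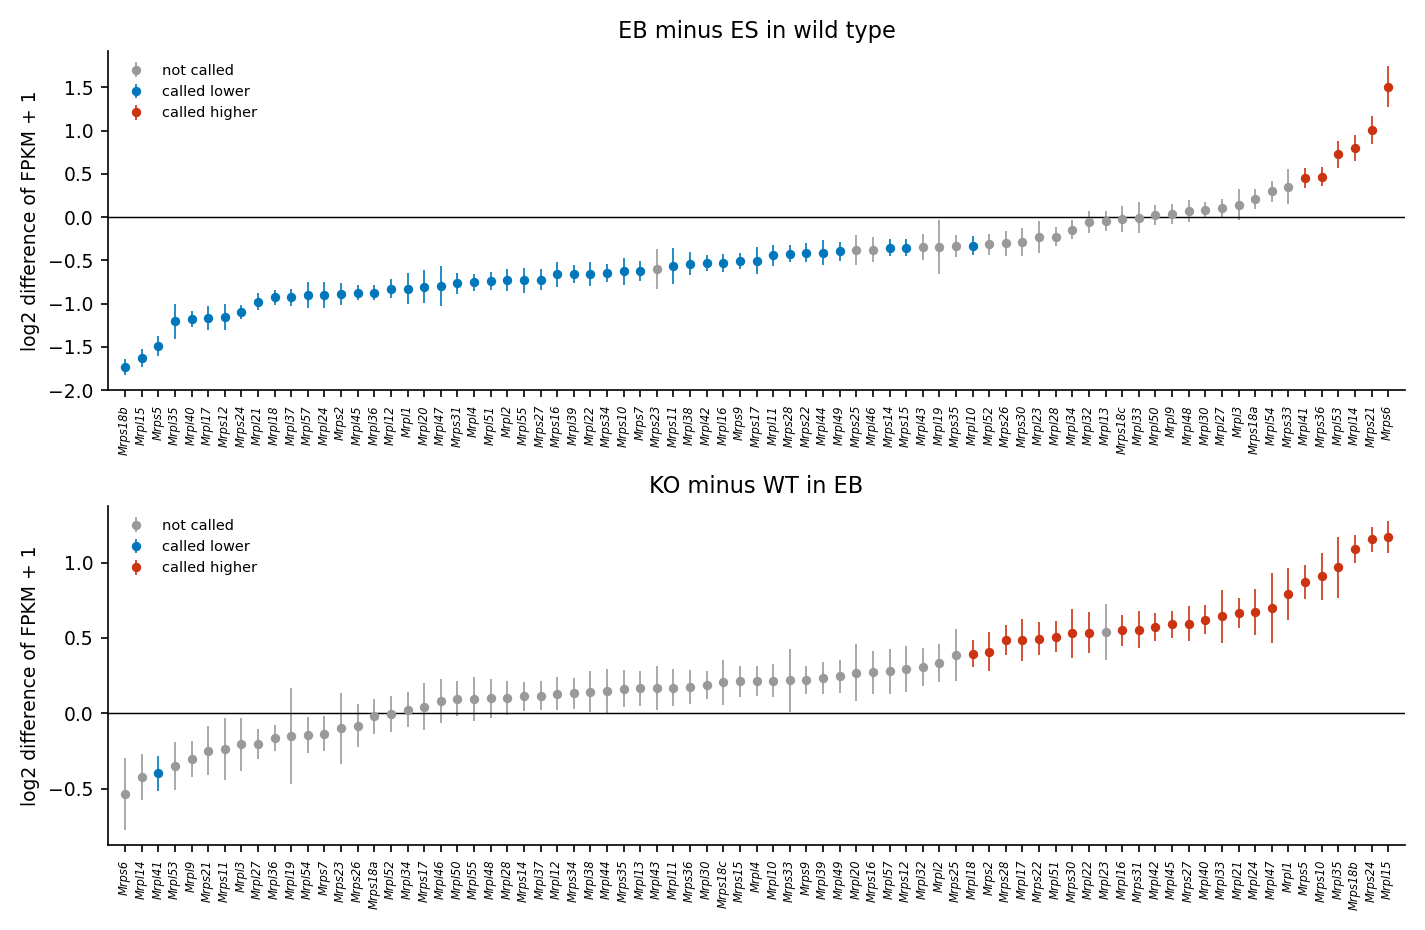
Log2 difference with its standard error for each of the 77 genes, ranked, for EB minus ES in WT cells and for KO minus WT in EBs; colour marks genes called by limma at adjusted p under 0.05. In the first comparison 46 are called lower and 6 higher, and in the second 25 are called higher and 1 lower.

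The EB groups also differed in their cell types, and the part of these differences in the results above was not tested. Marker sums are given as the range over the libraries of a group. Markers of ES cells (5 genes, among them Pou5f1) summed to 103 to 177 FPKM in WT EB, 1138 to 1407 FPKM in KO EB and 2141 to 2566 FPKM in the ES groups, and all 5 were called higher in KO EB. Cardiomyocyte markers summed to 2352 to 3046 FPKM in WT EB and 20.0 to 177 FPKM in KO EB, with 6 of 6 lower. Fibroblast and feeder markers summed to 670 to 861 and 36.4 to 65.7 FPKM (6 of 7 lower and 1, Thy1, higher), blood and endothelium markers to 519 to 1810 and 49.8 to 76.8 FPKM (5 of 6 lower), and germ layer markers to 268 to 278 and 52.3 to 101 FPKM (6 of 7 lower). No marker was at 0 in both libraries of any group.

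Whether the KO effect itself differed between EBs and ES cells was tested as an interaction. In limma 21 of the 77 had a higher KO effect in EBs and 0 a lower one (29 and 2 at an unadjusted p under 0.05, which 17.7% and 26.1% of all genes tested reached), where 12.7% of all genes tested were higher and 18.6% lower. The median was 0.32 against -0.10 for all genes tested. The largest were those of Mrpl15 (log2 1.51 ± 0.15, adjusted p = 0.00234), Mrps5 (1.29 ± 0.16, adjusted p = 0.00345), Mrps24 (1.27 ± 0.12, adjusted p = 0.00198) and Mrps18b (1.26 ± 0.13, adjusted p = 0.00242). For Mrps5 and Mrpl15 the KO ES libraries were themselves below the WT ES libraries, at 77.2 and 67.2 and 127 and 128 FPKM, although neither difference was called. Mrpl35 followed with 1.02 ± 0.29 (adjusted p = 0.0346), lost without most single libraries (up to 0.108). The count depended on single libraries: it was 9 without WT ES replicate 1, 13 without WT ES replicate 2, 13 without KO ES replicate 1, 9 without WT EB replicate 2 and 8 without KO EB replicate 1. The 8 genes called under all alternatives were Mrpl15, Mrpl21, Mrpl40, Mrpl42, Mrpl45, Mrps5, Mrps18b and Mrps24. At a common FPKM total 10 were higher and 2 lower, and at a common median FPKM 41 were higher and 0 lower.

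The interaction equals the difference between the courses from ES cells to EBs in KO and in WT cells. The KO course was measured in libraries not used for the WT course and had a smaller median. In limma 16 of the 77 fell and 5 rose, where 12.0% of all genes tested fell and 17.1% rose. The median log2 difference was -0.09, against 0.07 for all genes tested and -0.50 for the same genes in WT cells. All 16 that fell in KO cells were among the 46 that fell in WT cells, and 30 of those 46 were not called in KO cells. Mrps6, Mrps21 and Mrps36 rose in both. Across the 77 genes the WT and KO courses had a Pearson correlation of 0.666 and a Spearman correlation of 0.621, against 0.610 and 0.647 over all genes tested; genes are not independent replicates.

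Mrpl37, a mitochondria-specific large-subunit protein, fell from 62.6 and 55.7 FPKM in KO ES to 35.0 and 36.8 FPKM in KO EB (log2 -0.70 ± 0.10, limma adjusted p = 0.00391). Mrpl4, a large-subunit protein with a bacterial homolog, fell from 68.7 and 65.8 to 42.8 and 45.6 FPKM (log2 -0.60 ± 0.10, adjusted p = 0.00661). Mrps36 rose from 34.9 and 35.2 to 54.2 and 53.0 FPKM (log2 0.60 ± 0.11, adjusted p = 0.00980). These 3 calls held under every alternative, and the other 18 did not. The largest fall was that of Mrps11, a protein of the small-subunit platform, from 45.9 and 31.0 to 18.7 and 22.0 FPKM (log2 -0.86 ± 0.21, adjusted p = 0.0220), lost without KO ES replicate 1 (0.0895), KO EB replicate 1 (0.0986) or KO EB replicate 2 (0.0577). Mrps12 fell from 131 and 106 to 75.2 and 73.0 FPKM (log2 -0.66 ± 0.15, adjusted p = 0.0187), and Mrpl20, needed for assembly in bacteria, from 121 and 91.9 to 64.1 and 69.9 FPKM (log2 -0.65 ± 0.19, adjusted p = 0.0411). Mrps6 rose from 28.2 and 18.3 to 47.7 and 58.6 FPKM (log2 1.18 ± 0.24, adjusted p = 0.0121), lost without KO EB replicate 2 (0.0669). Mrps21 rose from 145 and 157 to 246 and 221 FPKM (log2 0.62 ± 0.16, adjusted p = 0.0273). In each of these the KO EB libraries did not overlap with the KO ES libraries. Mrpl23 (55.1 and 51.7 to 88.4 and 77.5 FPKM, adjusted p = 0.0440) and Mrpl30 (57.8 and 53.6 to 71.5 and 74.4 FPKM, adjusted p = 0.0218) also rose; a model named Mrpl23-ps1, at 6.37 to 15.6 FPKM, could share reads with Mrpl23. The number that fell was 2 without KO ES replicate 1, 9 without KO ES replicate 2 and 4 without either KO EB library, and the number that rose was 2, 2, 2 and 1. At a common median FPKM 23 fell and 2 rose, and with the total free of cytosolic ribosomal and mitochondrially encoded genes 11 fell and 7 rose.

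**Figure D4:**
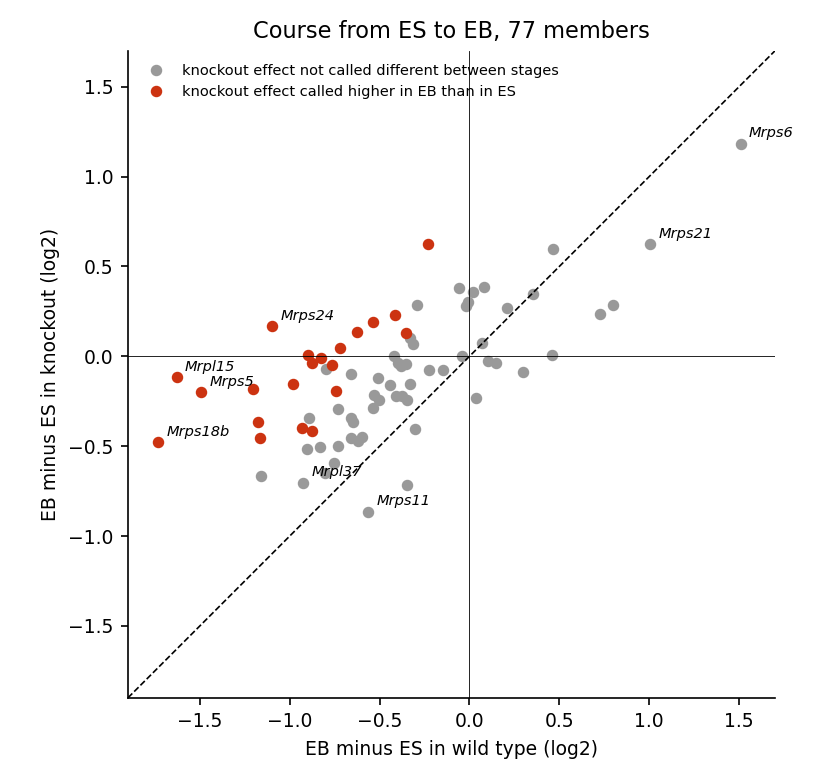
Log2 difference EB minus ES in WT cells (horizontal) against the same in KO cells (vertical) for the 77 genes; red points had a higher KO effect in EBs in the interaction test and the dashed line marks equal courses. The 21 red points lie above the line, with Mrpl15, Mrps5, Mrps24 and Mrps18b farthest from it.

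Other parts of the mitochondrial translation system are given from the same fit, for KO minus WT in EBs, where 20.0% of all genes tested were higher, 25.9% lower and the median was -0.06. Of 6 mitoribosome proteins under other symbols, 2 were higher and 1 lower: Ptcd3 (25.2 and 23.3 FPKM in WT EB, 47.0 and 42.1 in KO EB) and Dap3 (65.4 and 46.0, then 103 and 86.5 FPKM) of the small subunit rose, and Ict1, a peptidyl-tRNA hydrolase built into the large subunit, fell from 85.1 and 81.5 to 62.8 and 67.6 FPKM (limma adjusted p = 0.0210). Of 22 assembly and rRNA modification factors 4 were higher and 1 lower (median 0.12), or 18.2% higher, no more than the 20.0% of all genes tested; they were led by the GTPase Gtpbp10 (log2 1.01, adjusted p = 0.00122), Fastkd2 (0.78, adjusted p = 0.00449) and the rRNA methyltransferase Mrm1 (1.09, adjusted p = 0.00708). Of 15 translation factors 4 were higher and 0 lower (median 0.35), among them the elongation factors Tsfm (log2 0.66, adjusted p = 0.00218) and Gfm1 (0.58, adjusted p = 0.00476) and the mRNA-stabilizing Lrpprc (0.59, adjusted p = 0.00405). Of 17 mitochondrial aminoacyl-tRNA synthetases 5 were higher and 0 lower (median 0.38), among them Tars2 (log2 0.55, adjusted p = 0.00801) and Iars2 (0.38, adjusted p = 0.0189). The medians of these lists lay above that of all genes tested.

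Of 13 genes for mitochondrial transcription and DNA maintenance, 5 were higher and 1 lower (median 0.33), with the nuclease Mgme1 (log2 1.14, limma adjusted p = 0.00108), the transcription elongation factor Tefm (1.23, adjusted p = 0.00291) and the topoisomerase Top1mt (0.95, adjusted p = 0.0177). Of 18 general mitochondrial proteins 11 were higher and 0 lower (median 0.42), led by the chaperones Hspa9 (138 and 127 FPKM in WT EB, 266 and 233 in KO EB), Hspd1 (232 and 236, then 451 and 409 FPKM) and Hspe1 (log2 0.81, adjusted p = 0.00158). Of the 13 mitochondrially encoded genes, whose messages the mitochondrial ribosome translates, 0 were called in either direction (median 0.12; 1 higher and 1 lower at an unadjusted p under 0.05), the lowest limma adjusted p being that of mt-Co3, 0.0793. In the course from ES to EB, 4 of these 13 fell in WT cells, where 24.8% of all genes tested fell, and 6 in KO cells, where 12.0% did. Cytosolic ribosomal protein genes moved farther, with 66 of 79 higher and 0 lower in KO EBs (median 0.63), and in the WT course 17 were lower (21.5%, near the 24.8% of all genes tested) and 0 higher (median -0.10). Of 12 regulators of nuclear genes for mitochondrial proteins, 3 were higher and 1 lower. The coactivator Ppargc1a was at 3.42 and 2.15 FPKM in WT EB and at 0 and 0.166 FPKM in KO EB (adjusted p = 0.00102) and was listed at 0 in all ES libraries, and its relative Pprc1 rose from 25.5 and 24.2 to 45.5 and 44.5 FPKM (log2 0.83, adjusted p = 0.00105). Gabpb2, a partner of the GABP DNA-binding subunit, rose (log2 0.50, adjusted p = 0.0196).

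At the promoters, 76 of the 77 genes were found in the histone mark tables. Values are the authors' promoter signal, which rises with locus length (Spearman correlation over genes 0.432 to 0.485 for H3K4me3 and 0.588 to 0.686 for H3K27me3), and 1 library per group allows no test. The genes carried more H3K4me3 than most: their median signal was 12.9 in WT ES, 13.4 in KO ES, 14.1 in WT EB and 13.2 in KO EB, against 8.94, 9.31, 10.97 and 10.01 over all genes. Mrpl53 alone stayed under a signal of 1 in all 4 libraries, although its RNA ranged from 15.1 to 31.3 FPKM. H3K27me3 was below a signal of 1 in 68 to 71 of the 76, against 38.5% to 40.5% of all genes. The exceptions with the most signal in WT ES have long loci, 121773 bases for Mrps28, the longest of the 77, and 53958 bases for Mrps6. A long locus did not always go with a high signal: Mrpl33, at 67450 bases, had 0.16 in WT ES. The signal of Mrps28 was 13.6 in WT ES, 11.7 in KO ES, 7.08 in WT EB and 9.02 in KO EB. That of Mrps6 was 2.93, 5.47, 1.20 and 3.60 in the same order, and in WT EB Mrps27, at 2.16, exceeded it. Both Mrps28 and Mrps6 had their lowest signal in WT EB. There RNA of Mrps6 was highest, whereas RNA of Mrps28 was called lower than in WT ES. Of 8 genes with a signal of at least 1 in WT ES or WT EB, 6 fell past 1.5-fold and 0 rose past it. The median ratio over all genes was subtracted first. Of 13169 genes, 2928 fell past 1.5-fold and 3485 rose past it (48.7% in either direction). Mrpl1 (1.55 in WT ES and 0.80 in WT EB), Mrpl14 (1.20 and 0.60) and Mrpl23 (1.55 and 0.32) reached 1 in WT ES alone. Entry through WT ES favours a fall, so no conclusion is drawn from this count.

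H3K4me3 ratios were taken after subtraction of the median ratio over all genes, and 75 genes had a signal of at least 1 in either library. Between KO and WT EBs 28.1% of all genes were past 1.5-fold in either direction, 3085 of 15932 upward and 1399 downward. Of the 75, 4 were past it, all upward. They were Mrps21 (signal 2.91 in WT EB and 9.04 in KO EB, log2 ratio 1.74), Mrpl45 (7.98 and 13.4, log2 ratio 0.88), Mrps12 (6.67 and 11.1, log2 ratio 0.86) and Mrpl49 (4.80 and 7.60, log2 ratio 0.79). Among these, RNA was called higher in KO EBs for Mrpl45 alone. The 25 genes with higher RNA in KO EBs had a median H3K4me3 log2 ratio of 0.18, with 20 above 0 and 5 below, and the 49 uncalled genes a median of -0.0092, with 24 above 0. Over the 75 genes the RNA and H3K4me3 differences had a Pearson correlation of 0.227 and a Spearman correlation of 0.363, as a description across genes. In the other comparisons these correlations were lower. They were 0.166 and 0.246 for the WT course, -0.0253 and -0.107 for the KO course, and 0.153 and 0.124 for KO against WT ES. For Mrpl15 the signal was 14.2 in WT EB and 14.9 in KO EB, so the gene with the largest RNA rise showed little change in this mark.

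From ES to EB in WT cells, 43.2% of all genes were past 1.5-fold in H3K4me3, 3061 of 16036 upward and 3862 downward. Of the 75 genes, 6 were past it upward and 12 downward. The largest fall was that of Mrps21, from 10.965 in WT ES to 2.91 in WT EB (log2 ratio -2.04), a gene whose RNA rose over the same step. Mrpl47 (log2 ratio -1.74), Mrpl45 (-1.62), Mrpl49 (-1.09), Mrps12 (-0.94) and Mrps27 (-0.87) followed. In the same direction, RNA of Mrpl45 was at 56.7 and 57.3 FPKM in WT ES and 30.9 and 30.4 FPKM in WT EB. The upward ratios were those of Mrps26 (0.96), Mrpl43 (0.94), Mrps6 (0.77), Mrps30 (0.72), Mrps34 (0.68) and Mrpl23 (0.67). In the KO course 1 gene was past it upward and 3 downward (11.6% of all genes), and between KO and WT ES cells 0 were (4.11% of all genes).

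Many of these genes share their start region with a neighbour on the other strand. A RefSeq start on the other strand, facing away and within 1000 bases, was found for 24 of the 68 genes with a promoter sequence (35.3%), against 1483 of 17492 protein-coding genes (8.48%); this count was made after seeing the data. Of the 24 neighbours, 5 were higher in KO EBs and 3 lower, a share of higher ones near the 20.0% of all genes tested (25.9% of which were lower). Among the 8 that start beside a gene called higher in KO EBs, 1 was itself called higher. That was Ptcd2, whose start lies 108 bases from that of Mrps27 and which rose from 14.0 and 13.0 to 20.6 and 20.5 FPKM (log2 0.57, limma adjusted p = 0.0112). Hira, 113 bases from Mrpl40, was at 33.3 and 31.6 FPKM in WT EB and 31.1 and 34.3 FPKM in KO EB (log2 0.0085, adjusted p = 0.957), while Mrpl40 rose by a log2 difference of 0.62 (adjusted p = 0.00256). Ndufb5, a respiratory complex I gene starting beside Mrpl47, was at 108 and 111 FPKM in WT EB and 111 and 106 FPKM in KO EB. Ppp1r10, 756 bases from Mrps18b, had a log2 difference of -0.34 (limma adjusted p = 0.133). Of the start regions printed above, that of Mrps27 thus lies between genes that were both called higher, and that of Mrpl40 between Mrpl40, called higher, and Hira, not called. Sars2, the mitochondrial seryl-tRNA synthetase gene 147 bases from Mrps12, rose (log2 0.44, adjusted p = 0.0237) where Mrps12 was not called. The starts of Mrpl46 and Mrps11 lie 42 bases apart and face away from each other, and neither gene was called in this comparison. Their loci overlap by 413 bases, so their values may share reads.

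**Figure D5:**
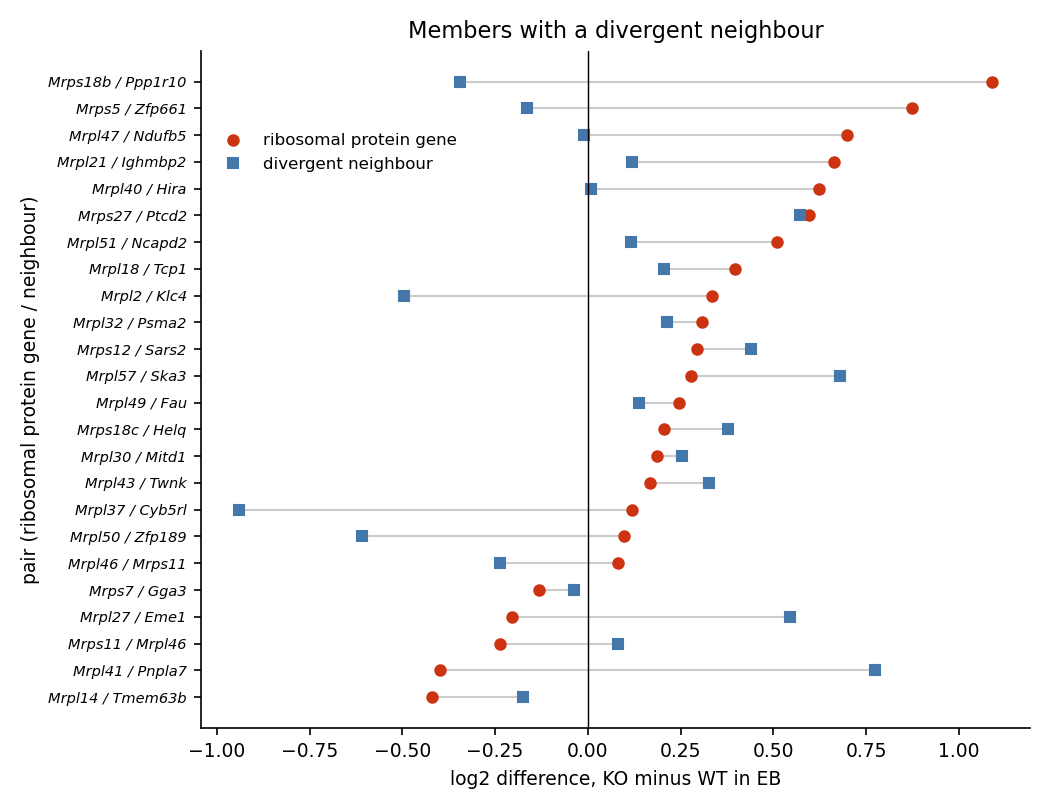
Log2 difference KO minus WT in EBs for 24 mitochondrial ribosomal protein genes and for the neighbour whose start faces away within 1000 bases. Each pair shares a line of the plot; of the 8 neighbours of genes called higher, Ptcd2 alone was called higher.

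Of the 68 promoters, those of genes called higher in KO EBs held NRF1 letters in 3 of 23, ETS letters in 5, YY1 letters in 4 and NF-Y letters in 6. Those of uncalled genes held them in 4, 7, 8 and 20 of 44. These shares were not tested.

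For 22 of the 77 genes the locus overlaps another gene whose mean was 1 FPKM or more, and whether counting used the strand is not given, so their values may include reads of that gene. Of the 12 genes called higher in KO EBs under every alternative, Mrpl21, Mrps24 and Mrps28 are among these 22. For these 77 genes the libraries of a group were less alike in ES cells than in EBs: 55 of the 77 were higher in replicate 1 of WT ES and 57 in replicate 1 of KO ES, and the median absolute log2 gap between replicates was 0.158 and 0.147, against 0.109 in WT EB and 0.0950 in KO EB.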

How the data were processed

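RNA values are FPKM per gene, deposited by the authors as 1 table of 8 libraries. Histone mark values are the signal per gene promoter, deposited by the authors as 1 table per mark with a column for each library. The names of these tables call the values RPKM on promoters. The submitters' processing notes name STAR 2.6.0a, Bowtie2, HTSeq, Cufflinks 2.2.1, DESeq2 and mm10, without roles. The 4 input libraries were not analysed here. Sequencing depth and read counts are not given in the sources used here.

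Of 53560 genes, 120 second entries of a symbol were left out and 15428 reached 1 FPKM in 2 libraries. These were fitted as log2(FPKM + 1) with limma 3.58.1 (R 4.3.3; trended prior variance, 1 mean per group, all 8 libraries, 4 residual and 7.05 moderated degrees of freedom), two-sided, p-values being adjusted by Benjamini and Hochberg's method over every gene tested; a call is an adjusted p under 0.05. Histone mark ratios use the signal + 0.1, genes with at least 1 in either library, and the median ratio subtracted; 1.5-fold was counted. Alternatives were pseudocount 0.1, other filters, 4 scalings, a replicate block, no trend and leaving out each library.

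The genes and lists were chosen with earlier results of these data known. Named genes are the 10 largest called rises and up to 10 called falls in KO against WT EBs, up to 5 of each in other comparisons, the 3 highest and 3 lowest by mean FPKM, anchors chosen by role, and up to 3 per companion list by adjusted p. Other genes, in the promoter, histone mark and neighbour results, were named after their values were seen. Of the genes the rule selects, 1 is not reported here.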

Additional observations from a re-analysis of the deposited data

Results flagged for a closer look

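For 21 of the 77 genes the KO effect differed between EBs and ES cells in limma's interaction test, all with the higher effect in EBs. The log2 difference between the effects was 1.51 for Mrpl15, 1.29 for Mrps5, 1.27 for Mrps24, 1.26 for Mrps18b and 1.02 for Mrpl35. It was 0.91 for Mrpl24, 0.86 for Mrpl23, 0.84 for Mrpl45, 0.83 for Mrpl21, 0.82 for Mrpl1 and 0.81 for Mrpl40. Mrps27 had 0.77, Mrps10 0.76, Mrpl42 0.72, Mrps31 0.72, Mrpl17 0.71 and Mrps22 0.64. The smallest were those of Mrpl51 at 0.55, Mrpl18 at 0.53, Mrps14 at 0.48 and Mrpl36 at 0.46. For Mrpl36 the KO ES libraries were lower than the WT ES libraries (41.5 and 40.3 against 64.1 and 62.9 FPKM), and it was not called in EBs. Groups of 2 libraries were not examined for single outlying samples.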

How the results depend on the processing

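Across 17 alternatives, 1 of them chosen after seeing the data (the total without cytosolic ribosomal and mitochondrially encoded genes), the median of the 77 genes kept its sign in every comparison, while counts moved; apart from the scalings, which change the values themselves, the cause was not tested. At a common FPKM total, KO against WT in EBs gave 8 lower and a median of 0.012, in ES 0 lower, the WT course a median of -0.40, the KO course 3 higher and -0.19, and the interaction 10 higher, 2 lower and 0.11. At a common median FPKM the values were 45 higher, 0 lower and 0.42 (EBs), -0.20 (ES), 2 higher and -0.97 (WT course), 2 higher and -0.25 (KO course) and 41 higher and 0.62 (interaction), and Mrpl41 reversed to -0.0049 in the WT course. Quantile normalization gave a median of 0.27 (EBs) and 0 lower (ES). The added total gave 2 lower and 0.16 (EBs), -0.39 (WT course), -0.032 (KO course) and 0.26 (interaction), and shares of 0.882%, 0.825%, 0.710% and 0.814% in WT ES, KO ES, WT EB and KO EB. Pseudocount 0.1 and a mean of at least 5 FPKM gave 0 lower in ES. Without the filter the KO course had 3 higher and 9 lower, and without the trend 3 higher and 10 lower, with 0 lower in EBs and in ES. With the replicate block, 2 were lower in KO EBs and 0 in KO ES, and other counts stayed within 1.5 times. Deviations of same-numbered libraries all correlated positively, by 0.311 between WT ES and KO ES and by 0.0678 to 0.127 between other groups. The main fit did not take the numbers to pair the samples, and a replicate effect shared by the ES groups alone was not tested.

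Leaving out 1 library at a time, KO EBs had 13 to 25 higher and 0 to 2 lower with medians of 0.20 to 0.22, KO ES had 0 higher and 0 lower with medians of -0.16 to -0.034, the WT course 4 to 6 higher and 37 to 48 lower (-0.52 to -0.45), the KO course 1 to 5 higher and 2 to 16 lower (-0.14 to -0.061), and the interaction 8 to 15 higher and 0 lower (0.26 to 0.37). A group left with 1 library was assumed to vary like the others. Of single-gene results, 1702 kept direction and call, 354 lost the call and 1 reversed. With 2 libraries a group and no depth given, genes near the threshold cannot be placed on either side of it.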
